A study of Mus musculus with 15 samples.

Results

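The genes described here are Igf1 and a set of genes of its receptors and binding proteins, which are Igf1r, Igf2r, Igfbp2, Igfbp3, Igfbp4, Igfbp5, Igfbp6 and Igfbp7. They were chosen by gene symbol, as the 26 probe sets (groups of short probes that are read together as 1 signal) annotated with 1 of these 9 symbols alone, among 34945 probe sets of 18193 named genes. A further probe set is annotated to both Airn, a long non-coding RNA, and Igf2r, and is kept apart. Primary chondrocytes were taken from hind limb cartilage of CD1 mouse embryos at day 15.5, grown as monolayers and treated with LY294002 (an inhibitor of the lipid kinase PI3K), U0126 (an inhibitor of the kinase MEK, spelled UO126 in the labels), SB202190 (an inhibitor of the p38 kinases, which the deposited text lists with the MEK/ERK pathway inhibitors), Trichostatin A (an inhibitor of histone deacetylases) or the vehicle DMSO. There were 3 arrays per treatment, 15 in all. The methods describe 3 independent experiments for LY294002 and DMSO. For the other treatments the sources used here do not say, so p values measure the spread between these arrays. The time of treatment is 24 h in the labels of the samples and 2 h in the series text. LY294002 was used at 10 µM, and the other doses are not given in the sources used here.

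IGF1 is a growth factor that binds the receptor tyrosine kinase IGF1R and through it activates PI3K, Akt and the ERK kinases. In the growth plate it is known to promote the enlargement of hypertrophic chondrocytes and the lengthening of bones. IGF2R, which has no kinase domain, takes up IGF ligands for degradation in lysosomes, and the IGF binding proteins hold IGFs outside the cell, where proteases release them. The PI3K arm of this signal is the target of LY294002, so the comparison asks how the genes that supply and receive it are expressed when that arm is blocked, and how this differs from the other 3 inhibitors.

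All values are log2 signals, so a difference of 1 is a doubling of the signal on the linear scale. Tests were limited to probe sets that averaged a signal of at least 50 (5.64 on the log2 scale) in either treatment compared, and all 26 probe sets of the 9 genes passed in every comparison. The arrays also name Igfbp1, which is not among the 9 genes. Its treatment means of 5.47 to 5.57 were below that minimum, and it was not tested. Each gene is represented by its probe set of highest mean over the 15 arrays. Adjusted p values are from limma, two-sided, with Benjamini-Hochberg adjustment over all probe sets tested, and a call means an adjusted p below 0.05. The fit leaves out the replicate number, although it pairs the arrays in most comparisons. Some differences that did not pass therefore pass with the number as a block, and these are given. No exact permutation p is given, since with 3 arrays in each treatment the smallest possible is 0.1. The small number of arrays limits how precise each value is. Array medians lay between 6.90 and 7.0, and no pair of arrays held identical values. All 10 chondrocyte markers checked, among them Col2a1, Acan and Sox9, had mean log2 signals between 10.7 and 14.3 in DMSO. Averaged over the 15 arrays, all 8 skeletal muscle markers were above the signal minimum (7.17 to 9.45 in DMSO). All 6 fibroblast markers were too (9.25 to 13.6 in DMSO). Of 8 macrophage markers 6 were (Lyz2 at 9.05 and Csf1r at 8.76 in DMSO), but not Ptprc or C1qb, the latter at 5.67 in DMSO. Of 7 endothelial markers 4 were (Kdr at 7.99 and Tek at 5.67 in DMSO), but not Pecam1, Cdh5 or Tie1. The minimum is low, since 34562 of 45037 probe sets passed it in LY294002 or DMSO. Passing it does not by itself show that a cell type was present.

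Trichostatin A changed more of the 9 genes than any kinase inhibitor. Against DMSO, Igf1r and Igfbp2 were higher and Igf1, Igfbp3, Igfbp4, Igfbp5 and Igfbp6 were lower in Trichostatin A, 7 of 9 genes, where 43.6% of all probe sets tested were called (23% higher and 20.6% lower). In LY294002, Igf1, Igf1r, Igfbp4 and Igfbp7 were higher and Igfbp6 was lower, 5 of 9 genes, where 8.62% of all probe sets were called (6.83% higher and 1.78% lower). In U0126, Igfbp2 was higher and Igfbp6 lower, 2 of 9 genes against 1.93% of all probe sets (1.14% higher and 0.792% lower). In SB202190, Igfbp2 was lower and no other gene was called, 1 of 9 against 1.94% of all probe sets (1.23% higher and 0.706% lower). The 4 comparisons share the DMSO arrays. Igf2r was called in none of them.

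**Figure D1:**
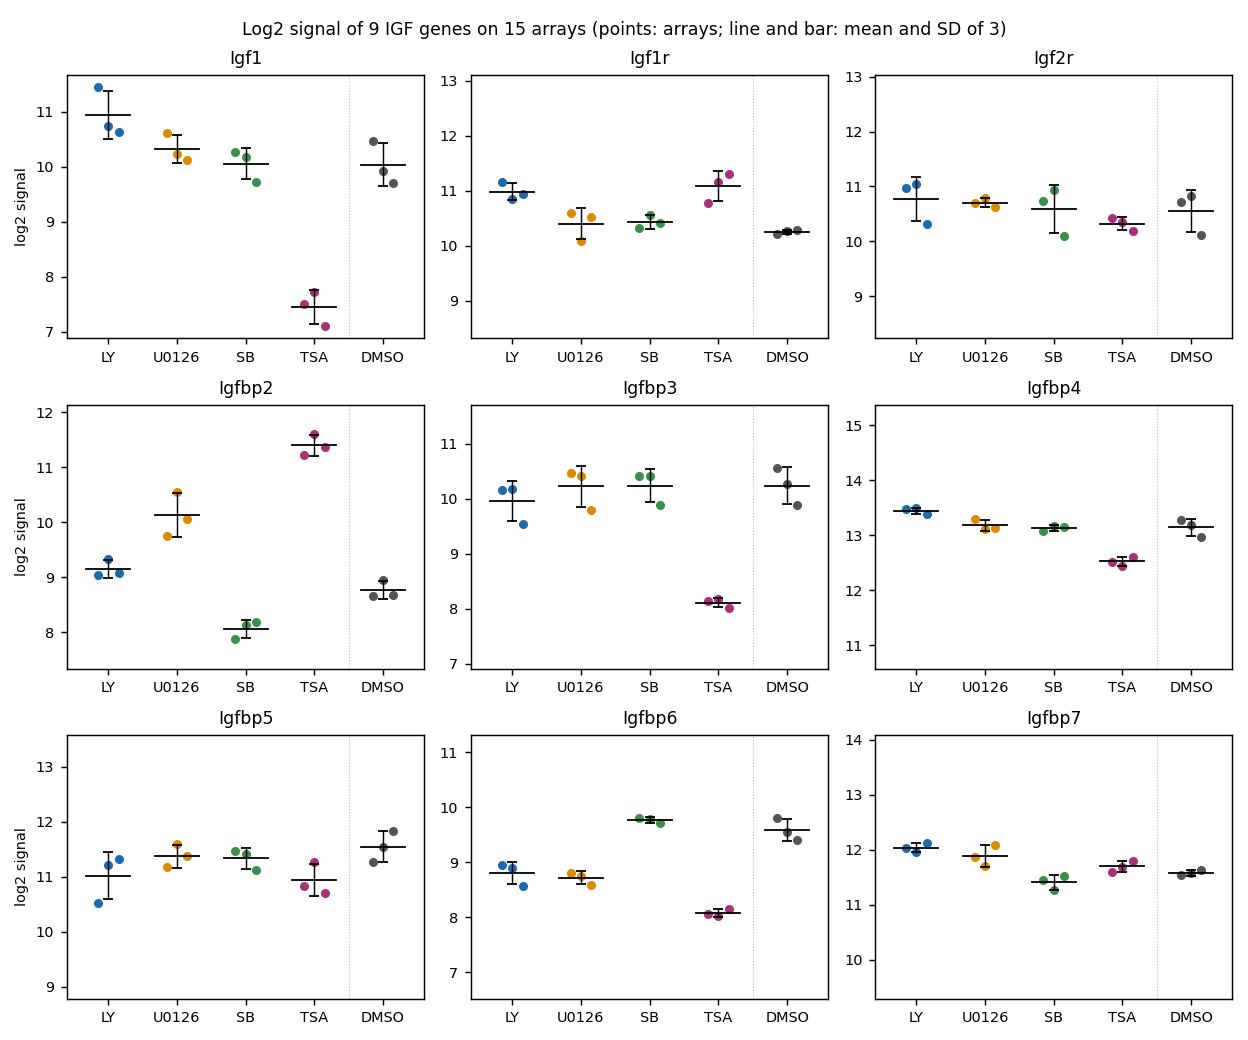
Log2 signal of the 9 genes on each of 15 arrays (y axis, of the same length in log2 units in every panel; x axis, LY294002 as LY, U0126, SB202190 as SB, Trichostatin A as TSA, and DMSO; points are arrays, with the mean and SD of 3). The Trichostatin A arrays lie far below all others for Igf1 (7.11 to 7.73) and Igfbp3 (8.02 to 8.17) and above all others for Igfbp2 (11.22 to 11.60).

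**Figure D2:**
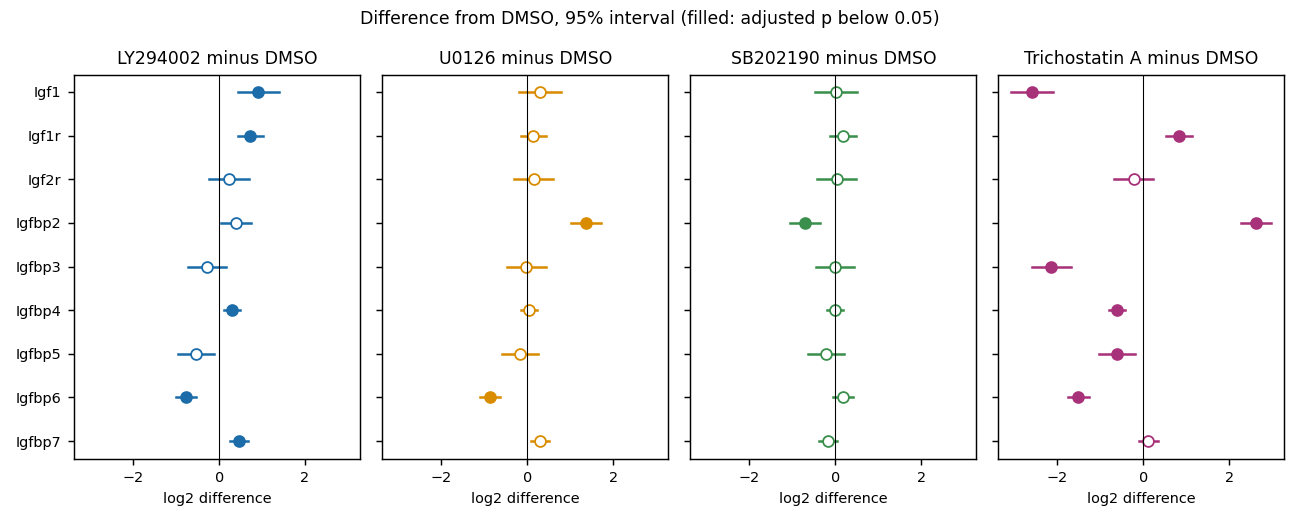
Log2 difference between each inhibitor and DMSO for the 9 genes (x axis; points with 95% intervals; filled points have an adjusted p below 0.05 from limma). Igfbp2 lies right of 0 in U0126 and Trichostatin A and left of 0 in SB202190, and Igf1 lies right of 0 in LY294002 and left of 0 in Trichostatin A.

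The ligand gene Igf1 was up-regulated by LY294002 and down-regulated by Trichostatin A. Its log2 signals were 11.45, 10.75 and 10.64 in LY294002, 10.62, 10.24 and 10.13 in U0126, 10.27, 10.18 and 9.73 in SB202190, and 7.51, 7.73 and 7.11 in Trichostatin A, against 10.47, 9.93 and 9.71 in DMSO. The Trichostatin A arrays were below every other array, and the LY294002 arrays all lay above the DMSO arrays, although the lowest LY294002 array exceeded the highest DMSO array by a small margin. Igf1 was 5.99-fold lower in Trichostatin A than in DMSO (log2 difference -2.58, SE 0.23, adjusted p = 9.38e-08) and 1.88-fold higher in LY294002 than in DMSO (0.91, SE 0.23, adjusted p = 0.0208). The differences from DMSO were 0.30 (95% interval -0.19 to 0.78) in U0126 and 0.02 (-0.46 to 0.51) in SB202190, neither past the threshold. The LY294002 call was lost without LY294002 replicate 1 (adjusted p = 0.118), DMSO replicate 2 (0.0847) or DMSO replicate 3 (0.108), with those 2 treatments fitted alone (0.0896), and without replicate 2 (0.207) or 3 (0.081) of every treatment. It held in the other alternative fits, where the lowest adjusted p was 0.000135.

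All 4 probe sets of Igf1 moved alike. In LY294002 they were higher by 0.53 to 0.92 on the log2 scale, and in Trichostatin A the 3 others differed by -2.23, -1.50 and -0.95, each with an adjusted p below the threshold. On the dimmest of them, DMSO stood just above SB202190 (8.66 and 8.65). On the probe set that represents Igf1, LY294002 stood first, followed by U0126, SB202190, DMSO and Trichostatin A. The neighbours LY294002 and U0126 differed by 0.62 (adjusted p = 0.135, or 0.0031 with the replicate number as a block), and U0126, SB202190 and DMSO did not differ beyond their spread.

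The receptor gene Igf1r rose in LY294002 and in Trichostatin A. Its log2 signals were 11.16, 10.86 and 10.94 in LY294002, 10.60, 10.08 and 10.53 in U0126, 10.32, 10.57 and 10.42 in SB202190, and 10.78, 11.17 and 11.30 in Trichostatin A, against 10.22, 10.27 and 10.28 in DMSO. The LY294002 and Trichostatin A arrays overlapped each other and lay above all arrays of the other 3 treatments. Igf1r was 1.66-fold higher in LY294002 than in DMSO (0.73, SE 0.14, adjusted p = 0.00495) and 1.77-fold higher in Trichostatin A than in DMSO (0.83, SE 0.14, adjusted p = 0.000132). Trichostatin A and LY294002, its neighbours at the top, differed by 0.10 (95% interval -0.20 to 0.40, adjusted p = 0.646). SB202190, U0126 and DMSO followed, with differences from DMSO of 0.18 in SB202190 and 0.15 in U0126 that did not pass. The LY294002 call was lost without replicate 2 (adjusted p = 0.0605) or 3 (0.0729) of every treatment.

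Igf1r has 5 probe sets. The third brightest gave 0.75 in LY294002 and 0.89 in Trichostatin A against DMSO (adjusted p = 0.000169 and 5.31e-07), and the second brightest gave 0.30 and 0.41, where the first did not pass (adjusted p = 0.0751). The remaining 2 probe sets had means of 7.0 and 6.89 over the 15 arrays and treatment means within 0.15 of each other. The gene of the other receptor, Igf2r, was read by 2 probe sets, and neither was called in any of 10 comparisons. Its log2 signals were 10.97, 11.04 and 10.32 in LY294002, 10.70, 10.79 and 10.62 in U0126, 10.73, 10.93 and 10.10 in SB202190, and 10.43, 10.35 and 10.19 in Trichostatin A, against 10.72, 10.82 and 10.11 in DMSO. Every inhibitor overlapped DMSO, while the Trichostatin A arrays lay below the U0126 arrays. The interval of the difference from DMSO was -0.23 to 0.68 in LY294002 and -0.68 to 0.23 in Trichostatin A. Without replicate 3 of every treatment, Igf2r was called lower in Trichostatin A than in DMSO (-0.38, adjusted p = 0.0215), and without LY294002 replicate 3 it was called lower in Trichostatin A than in LY294002 (-0.68, adjusted p = 0.0163, against 0.109 with all arrays).

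Igfbp2, which encodes a binding protein that is abundant in fetal tissues, rose in Trichostatin A and U0126 and fell in SB202190. Its log2 signals were 9.05, 9.33 and 9.07 in LY294002, 9.76, 10.56 and 10.07 in U0126, 7.88, 8.13 and 8.18 in SB202190, and 11.22, 11.60 and 11.38 in Trichostatin A, against 8.66, 8.96 and 8.68 in DMSO. The 5 treatments did not overlap, and their order was Trichostatin A, U0126, LY294002, DMSO and SB202190. Igfbp2 was 6.21-fold higher in Trichostatin A than in DMSO (2.63, SE 0.16, adjusted p = 1.44e-09) and 2.58-fold higher in U0126 than in DMSO (1.37, SE 0.16, adjusted p = 0.000186). In SB202190 it was 1.63-fold lower than in DMSO (-0.70, SE 0.16, adjusted p = 0.0363). In LY294002 the difference of 0.39 did not pass (adjusted p = 0.163), although it did with the replicate number as a block (0.0129). Among neighbours in the order, Trichostatin A exceeded U0126 by 1.27 (adjusted p = 7.26e-06) and LY294002 differed from U0126 by -0.98 (adjusted p = 0.00218). The SB202190 call was lost after quantile normalization (adjusted p = 0.069), without the Trichostatin A arrays (0.0526), and without SB202190 replicate 1 (0.193), 2 (0.0972) or 3 (0.0698), or DMSO replicate 2 (0.165) or 3 (0.0849). It was also lost without replicate 1, 2 or 3 of every treatment (0.0715, 0.189 and 0.267).

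Igfbp5, which encodes a binding protein that attaches to extracellular matrix, is the neighbour of Igfbp2 on mouse chromosome 1. The RefSeq table lists the 2 genes on opposite strands with 0 genes between them. Igfbp5 has 2 probe sets, and they differed in the size of the response to Trichostatin A. On the probe set with the suffix s_at the log2 signals were 11.97, 11.86 and 11.73 in LY294002, 12.22, 12.46 and 12.59 in U0126, 11.50, 11.63 and 11.67 in SB202190, and 8.18, 8.03 and 8.19 in Trichostatin A, against 12.16, 11.88 and 11.97 in DMSO. Every Trichostatin A array was over 3 log2 units below every other array. The probe set was 14.6-fold lower in Trichostatin A than in DMSO (-3.87, SE 0.11, adjusted p = 1.08e-13), the largest difference from DMSO of all 26 probe sets.

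The probe set with the suffix a_at represents Igfbp5 by its slightly higher mean over all arrays (11.24 against 11.20). The s_at mean was higher in LY294002 (11.85 against 11.02), U0126 (12.42 against 11.38), SB202190 (11.60 against 11.33) and DMSO (12.00 against 11.55). It was lower only in Trichostatin A (8.13 against 10.93), so that fall decided which probe set represents Igfbp5. On the a_at probe set the log2 signals were 10.53, 11.21 and 11.32 in LY294002, 11.17, 11.59 and 11.37 in U0126, and 11.47, 11.41 and 11.12 in SB202190. They were 10.84, 11.26 and 10.70 in Trichostatin A, against 11.26, 11.55 and 11.83 in DMSO. The highest Trichostatin A array and the lowest DMSO array were equal to the second decimal. The difference was -0.61 (SE 0.20, 95% interval -1.03 to -0.19, adjusted p = 0.0188), and the interval on the other probe set, -4.09 to -3.65, does not overlap it. The call on the a_at probe set was lost without Trichostatin A replicate 1 (adjusted p = 0.0622) or 3 (0.0922), or DMSO replicate 3 (0.0944). It was also lost without replicate 3 of every treatment, where the difference was -0.35 (adjusted p = 0.281). In LY294002 the difference of -0.53 from DMSO did not pass (adjusted p = 0.112), but did with the replicate number as a block (0.0301) and without DMSO replicate 1 (0.0408). On the s_at probe set the differences from DMSO were 0.42 in U0126 and -0.40 in SB202190, with adjusted p values of 0.0536 and 0.0648, or 0.0242 and 0.0286 with the replicate number as a block. The U0126 difference also passed without U0126 replicate 1 (0.0225) or DMSO replicate 1 (0.0286).

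**Figure D3:**
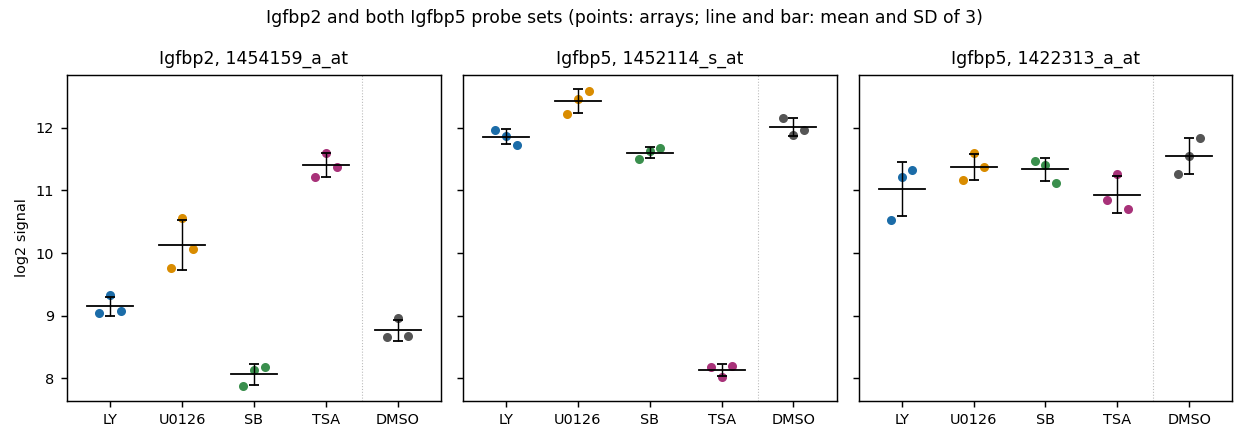
Log2 signal (y axis) of the Igfbp2 probe set and of both Igfbp5 probe sets on each of 15 arrays (x axis, LY294002 as LY, U0126, SB202190 as SB, Trichostatin A as TSA, and DMSO; points are arrays, with the mean and SD of 3). In Trichostatin A, Igfbp2 is at 11.22 to 11.60, the Igfbp5 probe set ending in s_at at 8.03 to 8.19 and that ending in a_at at 10.70 to 11.26.

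The sequences before the start sites of Igfbp2 and Igfbp5 are shown because these neighbours differed in opposite directions in Trichostatin A, and that of Igfbp6 because it was lower under 3 inhibitors. Each is the 250 bases before the start of the RefSeq gene, build GRCm38.p6, written 5′ to 3′ on the gene's own strand. Capitals mark the GC box (GGGCGG) and the TATA box (TATAAA), searched on both strands, and none of these sequences held both.
Igfbp2, chr1:72824230-72824479, plus strand: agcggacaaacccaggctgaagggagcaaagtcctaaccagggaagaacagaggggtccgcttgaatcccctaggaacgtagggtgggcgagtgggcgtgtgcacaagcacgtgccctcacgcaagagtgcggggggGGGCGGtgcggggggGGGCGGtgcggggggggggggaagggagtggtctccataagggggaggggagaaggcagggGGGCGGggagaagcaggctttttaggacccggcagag
Igfbp5, chr1:72874866-72875115, minus strand: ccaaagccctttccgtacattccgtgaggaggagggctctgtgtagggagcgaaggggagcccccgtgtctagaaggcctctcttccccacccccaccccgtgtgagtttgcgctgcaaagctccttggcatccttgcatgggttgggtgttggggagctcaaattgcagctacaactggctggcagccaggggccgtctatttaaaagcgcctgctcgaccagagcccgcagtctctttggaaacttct
Igfbp6, chr15:102143936-102144185, plus strand: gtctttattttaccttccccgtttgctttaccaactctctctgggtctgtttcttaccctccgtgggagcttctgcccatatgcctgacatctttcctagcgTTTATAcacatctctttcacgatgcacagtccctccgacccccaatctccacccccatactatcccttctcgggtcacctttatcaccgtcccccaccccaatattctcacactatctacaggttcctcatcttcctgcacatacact
The Igfbp2 sequence held 3 GC boxes and no TATA box, with 67.2% G and C. The Igfbp5 sequence held neither and had 58.8% G and C, while the Igfbp6 sequence held 1 TATA box, on the opposite strand, and had 49.6% G and C. Of 32851 RefSeq promoters of the same length, 32.7% held a GC box and 12.4% a TATA box, and the median share of G and C was 52.4%. All 9 genes matched the table by symbol, with 10 promoters, of which 4 held a GC box (Igf1r, Igf2r, Igfbp2 and Igfbp7) and 2 a TATA box (Igfbp4 and Igfbp6). The promoters of Igf1, Igfbp3 and Igfbp4 and the second promoter of Igfbp2 do not lie at the start of the RefSeq gene. The FOXO site TGTTTAC was in none of the 10 promoters, and in 3.17% of all. The E-box CACGTG was in 2 of the 10 (6.02% of all) and the AP-1 site TGANTCA in 2 (6.75% of all), those of Igf1 and the second of Igfbp2. A match is a match of letters only.

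Igfbp3 and Igfbp6 encode binding proteins that were down-regulated in Trichostatin A. The log2 signals of Igfbp3, the main carrier of IGF1 in serum, were 8.14, 8.17 and 8.02 in Trichostatin A, against 10.57, 10.27 and 9.89 in DMSO. The arrays of LY294002, U0126 and SB202190 lay between 9.54 and 10.48 and overlapped those of DMSO. Igfbp3 was 4.39-fold lower in Trichostatin A than in DMSO (-2.13, SE 0.21, adjusted p = 3.3e-07), and its other probe set gave -2.18 (adjusted p = 1.59e-08). The differences from DMSO were -0.28 (95% interval -0.73 to 0.16) in LY294002, -0.02 (-0.46 to 0.43) in U0126 and -0.01 (-0.45 to 0.44) in SB202190, none past the threshold.

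Igfbp6, whose product prefers the ligand IGF2, was the gene lowered by the most inhibitors. Its log2 signals were 8.95, 8.89 and 8.57 in LY294002, 8.81, 8.75 and 8.58 in U0126, 9.81, 9.78 and 9.71 in SB202190, and 8.06, 8.02 and 8.15 in Trichostatin A, against 9.80, 9.54 and 9.41 in DMSO. The arrays of LY294002 and U0126 overlapped each other, lay below all DMSO and SB202190 arrays and above all Trichostatin A arrays. The gene was 1.71-fold lower in LY294002 than in DMSO (-0.78, SE 0.11, adjusted p = 0.000671), 1.83-fold lower in U0126 than in DMSO (-0.87, SE 0.11, adjusted p = 0.000305) and 2.84-fold lower in Trichostatin A than in DMSO (-1.51, SE 0.11, adjusted p = 1.03e-08). In SB202190 the difference was 0.18 (95% interval -0.05 to 0.42, adjusted p = 0.567). Without replicate 2 of every treatment the adjusted p was 0.0558 in LY294002 and 0.0556 in U0126.

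Igfbp4 and Igfbp7 moved less. Igfbp4, whose product is cleaved by the protease PAPPA, had log2 signals of 13.47, 13.49 and 13.38 in LY294002 and 12.52, 12.45 and 12.61 in Trichostatin A, against 13.28, 13.18 and 12.97 in DMSO. LY294002 and Trichostatin A lay on opposite sides of DMSO and did not overlap it, while the U0126 and SB202190 arrays lay between 13.08 and 13.30. Igfbp4 was 1.54-fold lower in Trichostatin A than in DMSO (-0.62, SE 0.09, adjusted p = 2.37e-05) and 1.23-fold higher in LY294002 than in DMSO (0.30, SE 0.09, adjusted p = 0.0477). Its 6 probe sets ran from -1.35 to -0.62 in Trichostatin A and from 0.30 to 0.47 in LY294002, all called in both comparisons. The size of the fall was smallest on the 2 probe sets with the highest means, at -0.62 and -0.77. The LY294002 call on the brightest probe set was lost after quantile normalization (0.11, adjusted p = 0.302), with no filter (0.0546), without the Trichostatin A arrays (0.0596) and without LY294002 replicate 1 (0.141), 2 (0.128) or 3 (0.054), or DMSO replicate 2 (0.103) or 3 (0.219), as well as without replicate 1, 2 or 3 of every treatment (0.0686, 0.338 and 0.273). It was also lost with the 2 treatments fitted alone (0.183).

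Igfbp7, whose product binds IGFs weakly, had log2 signals of 12.04, 11.96 and 12.12 in LY294002, 11.87, 11.70 and 12.09 in U0126, 11.45, 11.26 and 11.52 in SB202190, and 11.60, 11.69 and 11.80 in Trichostatin A, against 11.54, 11.57 and 11.64 in DMSO. The LY294002 and U0126 arrays lay above all DMSO arrays, and the SB202190 arrays lay below them. Igfbp7 was 1.37-fold higher in LY294002 than in DMSO (0.46, SE 0.10, adjusted p = 0.0104). The other differences from DMSO did not pass, at 0.30 in U0126 (adjusted p = 0.194, or 0.0292 with the replicate number as a block), -0.17 in SB202190 and 0.12 in Trichostatin A (95% interval -0.09 to 0.33). The other 2 probe sets of Igfbp7 had means of 7.30 and 6.13 and were not called against DMSO. The LY294002 call was lost after quantile normalization (0.29, adjusted p = 0.109), with the mean of all 3 probe sets (0.19, adjusted p = 0.0855) and without replicate 1, 2 or 3 of every treatment (0.0858, 0.0998 and 0.0754).

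**Figure D4:**
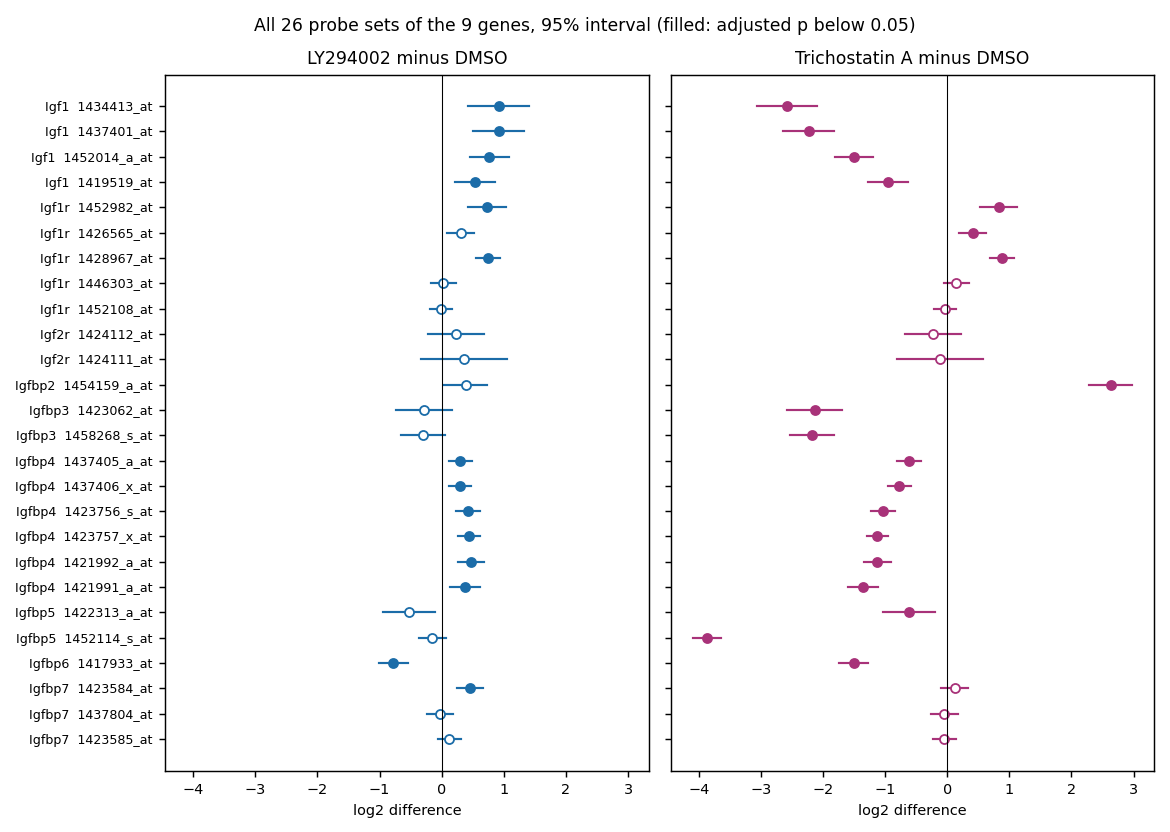
Log2 difference from DMSO in LY294002 and in Trichostatin A for the 26 probe sets of the 9 genes (x axis; rows are probe sets; points with 95% intervals; filled points have an adjusted p below 0.05 from limma). All 4 Igf1 and all 6 Igfbp4 probe sets lie right of 0 in LY294002 and left of 0 in Trichostatin A, and the 2 Igfbp5 probe sets lie apart in Trichostatin A, at -0.61 and -3.87.

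Markers of several cell types were also lower in Trichostatin A. Of all probe sets tested, 20.6% were called lower and 23% higher in Trichostatin A than in DMSO. The shares called higher were 6.83% in LY294002, 1.14% in U0126 and 1.23% in SB202190. The shares called lower were 1.78%, 0.792% and 0.706%. All 10 chondrocyte markers were lower in Trichostatin A than in DMSO, and their mean log2 signal per array was 10.25 to 10.88 in Trichostatin A, against 12.27 to 12.41 in DMSO. Of 8 skeletal muscle markers 7 were lower (array means 6.66 to 6.77 in Trichostatin A and 7.56 to 8.65 in DMSO), as were 4 of 6 fibroblast markers, with 1 higher (11.17 to 11.33 in Trichostatin A and 11.39 to 11.68 in DMSO), 5 of 8 macrophage markers, with 1 higher (6.93 to 7.15 in Trichostatin A and 7.18 to 7.32 in DMSO) and the 3 osteoblast markers measured (8.27 to 9.06 in Trichostatin A and 9.70 to 9.78 in DMSO). Of 7 endothelial markers, 1 was higher and 0 were lower (5.82 to 5.92 in Trichostatin A and 5.89 to 5.96 in DMSO). In bulk RNA, fewer cells of a type and less RNA per cell cannot be told apart. In LY294002 and in U0126, 2 chondrocyte markers each were higher and none was lower (array means 12.74 to 12.81 in LY294002 and 12.72 to 12.98 in U0126, against 12.27 to 12.41 in DMSO), and in U0126 2 osteoblast markers were higher (10.13 to 10.31 in U0126, against 9.70 to 9.78 in DMSO). In SB202190 no chondrocyte marker (11.99 to 12.30) and no osteoblast marker was called, although the osteoblast array means (8.76 to 9.29 in SB202190, against 9.70 to 9.78 in DMSO) did not overlap. The part of these markers in the values of the IGF genes was not tested.

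The inhibitors were then compared with each other directly, in the same fit, where the DMSO arrays enter only the estimate of the spread. LY294002 differed from U0126 in 2 of 9 genes, where 5.64% of all probe sets were called (3.99% higher and 1.65% lower): Igf1r was higher in LY294002 (0.58, SE 0.14, adjusted p = 0.0226) and Igfbp2 was lower in LY294002 (-0.98, SE 0.16, adjusted p = 0.00218). With the replicate number as a block, 4 genes were called, Igf1 and Igfbp4 being the others (adjusted p = 0.0031 and 0.0478). Without the block, the brightest Igfbp4 probe set did not pass (0.26, adjusted p = 0.103), while the other 5 were called higher in LY294002 than in U0126 (0.30 to 0.56, adjusted p = 0.00456 to 0.0458). The s_at probe set of Igfbp5 was called lower in LY294002 than in U0126 (-0.57, adjusted p = 0.00438), and its a_at probe set was not (-0.36, adjusted p = 0.329). The s_at call was lost without replicate 2 (0.148) or 3 (0.154) of every treatment. For Igfbp6, which was lower in both than in DMSO, LY294002 and U0126 differed by 0.09 (95% interval -0.14 to 0.33). The Igf1r call was lost without LY294002 replicate 1 (adjusted p = 0.112) or U0126 replicate 2 (0.122), with the 2 treatments fitted alone (0.0628), and without replicate 2 (0.26) or 3 (0.115) of every treatment, and the Igfbp2 call without replicate 3 of every treatment (0.0741).

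LY294002 differed from SB202190 in 5 of 9 genes, against 4.6% of all probe sets (3.06% higher and 1.54% lower). Igfbp2 (1.09, SE 0.16), Igf1 (0.89, SE 0.23), Igfbp7 (0.63, SE 0.10) and Igf1r (0.55, SE 0.14) were higher and Igfbp6 (-0.96, SE 0.11) was lower in LY294002, with adjusted p values of 0.00097, 0.035, 0.00155, 0.0342 and 0.000128. The brightest Igfbp4 probe set was 0.31 above SB202190 in LY294002 and did not pass (adjusted p = 0.0599, or 0.0261 with the replicate number as a block), while the other 5 were called higher in LY294002 (0.32 to 0.59, adjusted p = 0.00117 to 0.0365). The Igf1 call was lost without LY294002 replicate 1 (adjusted p = 0.178) or 2 (0.055) or any SB202190 array (0.0602 to 0.157). The Igf1r call was lost after quantile normalization (0.0632) and without any 1 of the 6 arrays (0.0535 to 0.157). Both were also lost without replicate 1, 2 or 3 of every treatment (Igf1 0.073, 0.214 and 0.0966, Igf1r 0.19, 0.0959 and 0.201). The Igfbp7 call was lost without replicate 2 of every treatment (0.0594).

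The inhibitors U0126 and SB202190, which the series text groups together, differed in 3 of 9 genes, against 5.22% of all probe sets (2.68% higher and 2.53% lower). Igfbp2 was 4.19-fold higher in U0126 than in SB202190 (2.07, SE 0.16, adjusted p = 7.95e-07), Igfbp7 was 1.39-fold higher in U0126 than in SB202190 (0.47, SE 0.10, adjusted p = 0.00905) and Igfbp6 was 2.08-fold lower in U0126 than in SB202190 (-1.05, SE 0.11, adjusted p = 1.83e-05). The s_at probe set of Igfbp5 was also higher in U0126 (0.82, adjusted p = 0.000129), whereas its a_at probe set was not called (0.04, 95% interval -0.38 to 0.46). The Igfbp7 call was lost without U0126 replicate 3 (adjusted p = 0.0655) or SB202190 replicate 2 (0.0636). It was also lost without replicate 1, 2 or 3 of every treatment (0.0673, 0.0871 and 0.1).

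Trichostatin A differed from LY294002 in 6 of 9 genes (40% of all probe sets called, 19.7% higher and 20.3% lower), from U0126 in 6 of 9 (42.6%, with 22.5% higher and 20.1% lower) and from SB202190 in 7 of 9 (38.3%, with 21% higher and 17.3% lower). In each of these comparisons Igfbp2 was higher and Igf1, Igfbp3, Igfbp4 and Igfbp6 were lower in Trichostatin A. Igf1 differed most from LY294002, by -3.50 (11.3-fold lower in Trichostatin A, adjusted p = 2.48e-09), and Igfbp2 most from SB202190, by 3.34 (10.1-fold higher in Trichostatin A, adjusted p = 1.05e-10). Igf1r was higher in Trichostatin A than in U0126 (0.68, adjusted p = 0.000806) and SB202190 (0.65, adjusted p = 0.00131). Igfbp7 was lower in Trichostatin A than in LY294002 (-0.34, adjusted p = 0.0124) and higher than in SB202190 (0.29, adjusted p = 0.0324). The first Igfbp7 call was lost without Trichostatin A replicate 1 (adjusted p = 0.0588) or LY294002 replicate 3 (0.0523), and without replicate 1 of every treatment (0.122). The second was lost after quantile normalization (0.0967) and without Trichostatin A replicate 2 (0.0623) or 3 (0.127) or SB202190 replicate 1 (0.0552) or 2 (0.163). It was also lost without replicate 1, 2 or 3 of every treatment (0.0617, 0.218 and 0.0794). The Igf1r call against SB202190 was lost without replicate 3 of every treatment (0.0579). The s_at probe set of Igfbp5 was lower in Trichostatin A than in LY294002 (-3.72, adjusted p = 1.61e-13), U0126 (-4.29, adjusted p = 3.83e-14) and SB202190 (-3.47, adjusted p = 4.34e-13), as was the mean of both probe sets (-1.90, -2.37 and -1.93). The counts above use the a_at probe set, which was called in none of the 3. The s_at probe set was called in all 3, so the counts leave out its fall. With the replicate number as a block, Igf2r and the a_at probe set of Igfbp5 were also lower in Trichostatin A than in U0126 (-0.38 and -0.44, adjusted p = 0.0122 and 0.0296, against 0.171 and 0.0853 without it). Without Trichostatin A replicate 2, the a_at probe set was called lower in Trichostatin A than in U0126 (-0.60, adjusted p = 0.0306) and SB202190 (-0.56, adjusted p = 0.0467), and without U0126 replicate 2, Igfbp7 was called lower in Trichostatin A than in U0126 (-0.28, adjusted p = 0.0453).

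Around these 9 genes, 3 lists of genes of the same pathway were followed. The first holds genes that supply IGF or act on its binding proteins, such as the growth hormone receptor and its signaling partners, and proteases. Of its 17 genes tested, 5 were higher and 1 was lower in LY294002, 1 was higher and 1 lower in U0126, 0 were higher and 1 lower in SB202190, and 2 were higher and 8 lower in Trichostatin A, each against DMSO. The median log2 differences were 0.11, 0.07, -0.09 and -0.24, beside -0.02, 0.00159, -0.01 and -0.06 over all probe sets tested, of which 8.62%, 1.93%, 1.94% and 43.6% were called. In LY294002, Lrp1, an endocytic receptor, rose (0.83, SE 0.10, adjusted p = 0.000129), as did Ghr, the growth hormone receptor (0.62, SE 0.12, adjusted p = 0.00481), and Socs2, an inhibitor of growth hormone signaling (0.54, SE 0.13, adjusted p = 0.0145). The Socs2 call was lost without LY294002 replicate 1 (0.0804) or DMSO replicate 2 (0.0731) or 3 (0.0656). It was also lost without replicate 2 (0.17) or 3 (0.102) of every treatment and with the 2 treatments fitted alone (0.0884). Of the 5 other Socs2 probe sets 2 had the same sign, and the mean over all did not pass (0.14, adjusted p = 0.126). The Ghr call was lost without replicate 2 (0.129) or 3 (0.0665) of every treatment and with the 2 treatments fitted alone (0.076).

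Proteases that cleave IGF binding proteins went in different directions in Trichostatin A. Pappa had log2 signals of 7.41, 7.51 and 7.56 in Trichostatin A, against 8.52, 8.32 and 8.50 in DMSO (-0.95, SE 0.09, adjusted p = 2.1e-07). Pappa2, its paralog, had 6.07, 6.34 and 6.35 in Trichostatin A, against 7.12, 7.13 and 7.01 in DMSO (-0.83, SE 0.11, adjusted p = 6.5e-06). Htra1, a serine protease, had 12.60, 12.45 and 12.77 in Trichostatin A, against 11.29, 11.05 and 11.21 in DMSO, and was 2.69-fold higher in Trichostatin A (1.43, SE 0.11, adjusted p = 1.42e-08). Pappa and Pappa2 were thus lower together, while Htra1 was higher, and their groups did not overlap. In U0126, Pappa2 rose (0.60, SE 0.11, adjusted p = 0.00494) and Stat5a, a transcription factor of growth hormone signaling, fell (-0.41, SE 0.08, adjusted p = 0.00817). In SB202190, Stc1, which inhibits PAPPA, fell (-0.36, SE 0.08, adjusted p = 0.0244), although its other probe set had the opposite sign. Stc1 was also lower in LY294002 than in DMSO (-0.52, adjusted p = 0.00101) and in Trichostatin A than in DMSO (-0.71, adjusted p = 1.26e-06). The Stat5a call was lost without DMSO replicate 3 (0.0514) and with the 2 treatments fitted alone (0.101). It was also lost without replicate 2 (0.344) or 3 (0.292) of every treatment. The Pappa2 call in U0126 was lost without replicate 2 (0.138) or 3 (0.104) of every treatment. The Stc1 call in SB202190 was lost without any 1 of the 6 arrays but DMSO replicate 2 (0.0544 to 0.134). It was also lost without replicate 1, 2 or 3 of every treatment (0.147, 0.226 and 0.343), with the 2 treatments fitted alone (0.0903) and with the mean of its probe sets (0.145).

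The second list holds the insulin receptor, the substrates and the adaptors that IGF1R uses. Of its 13 genes, 4 were higher and 1 was lower in LY294002, none was called in U0126, 1 was lower in SB202190, and 6 were higher and 1 was lower in Trichostatin A, with median differences of 0.24, 0.12, 0.11 and 0.22. Over all probe sets tested, 8.62%, 1.93%, 1.94% and 43.6% were called in these comparisons (in Trichostatin A 23% higher and 20.6% lower), with medians of -0.02, 0.00159, -0.01 and -0.06. Irs1, the main substrate, rose in LY294002 (0.65, SE 0.10, adjusted p = 0.00115), as did Insr, the insulin receptor (0.61, SE 0.11, adjusted p = 0.00264), although neither of the other 2 Insr probe sets went the same way and the mean of all 3 did not pass (0.12, adjusted p = 0.247). Without replicate 2 of every treatment, the calls of Irs1 (0.0735) and Insr (0.0681) were lost. Grb14, an adaptor that inhibits these receptors, had 9.59, 9.43 and 9.41 in LY294002 and 8.62, 8.76 and 8.90 in SB202190, against 10.07, 9.93 and 10.01 in DMSO. The 3 treatments did not overlap, and Grb14 was 2.37-fold lower in SB202190 than in DMSO (-1.24, SE 0.09, adjusted p = 1.53e-06) and 1.44-fold lower in LY294002 than in DMSO (-0.53, SE 0.09, adjusted p = 0.00184). The LY294002 call was lost without replicate 2 (0.0776) or 3 (0.0605) of every treatment. The other Grb14 probe set was called in neither comparison and had the opposite sign in SB202190. In Trichostatin A, Irs2, another substrate, was 2.42-fold higher (1.28, SE 0.12), Ptpn1, a phosphatase of the receptors, was 2.21-fold higher (1.14, SE 0.10) and Grb2, the adaptor to RAS, was 2.08-fold higher (1.05, SE 0.08), with adjusted p values of 1.51e-07, 1.08e-07 and 7.7e-09.

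The third list holds PI3K subunits, Akt, mTOR and FOXO genes. Of its 22 genes tested, 4 were higher and 1 was lower in LY294002, 1 was higher in U0126, none was called in SB202190, and 11 were higher and 4 lower in Trichostatin A, with median differences of 0.18, 0.03, 0.09 and 0.35, beside the same shares called (8.62%, 1.93%, 1.94% and 43.6%) and medians over all probe sets. In LY294002, Rictor, a subunit of an mTOR complex, rose (0.67, SE 0.14, adjusted p = 0.00613), as did Foxo3, a transcription factor restrained by Akt (0.40, SE 0.11, adjusted p = 0.0369), while Pik3r3, a regulatory subunit of PI3K, fell (-0.69, SE 0.10, adjusted p = 0.000657). The mean of all Rictor probe sets did not pass (0.19, adjusted p = 0.106), and the Rictor call was lost without replicate 2 (0.0735) or 3 (0.0664) of every treatment. In Trichostatin A, Pik3cb, a catalytic subunit of PI3K, rose (1.19, SE 0.12), as did Pdpk1, a kinase that activates Akt (1.12, SE 0.15), and Tsc2, an inhibitor of mTOR (0.89, SE 0.10), with adjusted p values of 5.52e-07, 7.61e-06 and 2.06e-06. In U0126, Foxo4 rose by 0.35 (SE 0.08, adjusted p = 0.0372), although its other probe set had the opposite sign and the mean of both did not pass (0.16, adjusted p = 0.197). The Foxo3 call was lost after quantile normalization (0.102) and without LY294002 replicate 1 (0.167) or 2 (0.0968) or DMSO replicate 3 (0.18). The Foxo4 call was lost after quantile normalization (0.15) and without U0126 replicate 2 (0.104) or 3 (0.206) or any DMSO array (0.0737 to 0.127). Both were also lost with the 2 treatments fitted alone (0.145 and 0.204). Without replicate 1, 2 or 3 of every treatment, Foxo3 was at 0.135, 0.192 and 0.143 and Foxo4 at 0.112, 0.398 and 0.42.

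**Figure D5:**
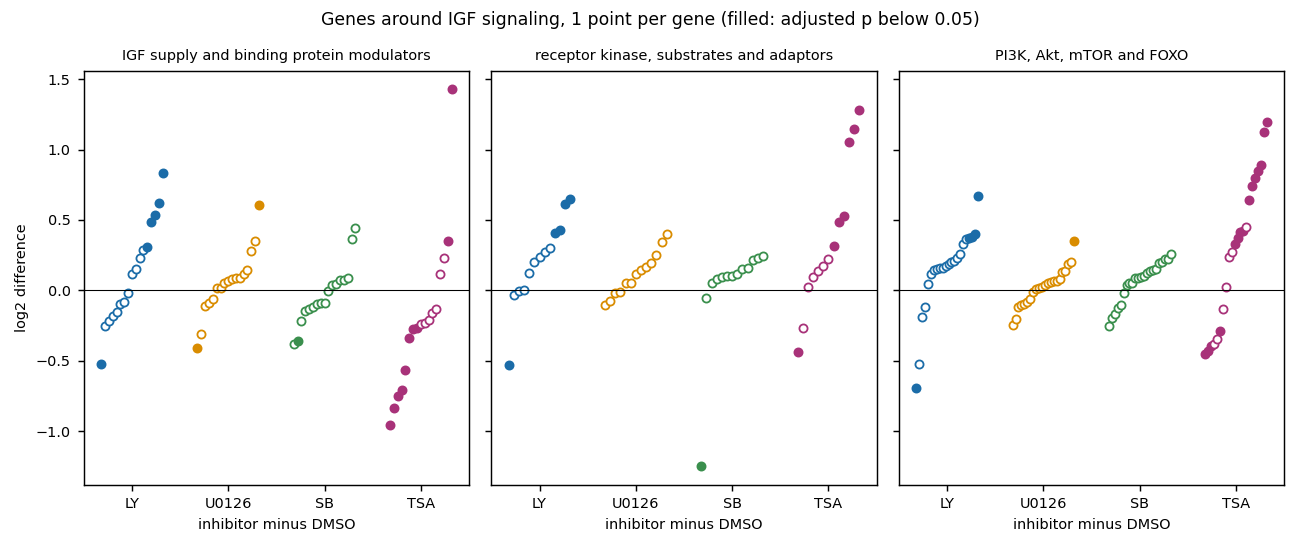
Log2 difference between each inhibitor and DMSO (y axis; LY294002 as LY, U0126, SB202190 as SB, Trichostatin A as TSA) for the genes of the 3 lists, 1 point per gene in order of its difference (filled points have an adjusted p below 0.05 from limma). Most filled points are in Trichostatin A, with Htra1 highest at 1.43 and Pappa lowest at -0.95 in the first list, and Grb14 in SB202190 is the lowest point of all at -1.24.

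The treatment means of 4 of the 9 genes, Igf1, Igfbp2, Igfbp3 and Igfbp6, spanned at least 1 log2 unit on the probe set that represents the gene. The s_at probe set of Igfbp5 (4.29) and 5 of the 6 Igfbp4 probe sets (1.06 to 1.74) did so too, but do not represent their genes and were not looked up. For the first 4, the genes with the most similar pattern were looked up among 15824 genes, by the mean absolute difference over the 15 arrays after centring each gene on its own mean. Igf1 was most like Fgf7 (0.20), Poglut3 (0.22) and Matn4 (0.22), a growth factor, a glycosyltransferase and a cartilage matrix protein. Igfbp3 was most like Vcam1 (0.17), Fasn (0.18) and Mcm3 (0.19), and Igfbp6 was most like Slc5a3 (0.18), Enpep (0.21) and Itih2 (0.23). Igfbp2 had no gene as close, its nearest being Kif5c (0.42), Dmrta1 (0.44) and Afap1l2 (0.47). Kif5c, a kinesin, had treatment means of 7.74 in LY294002, 7.76 in U0126, 7.49 in SB202190 and 9.90 in Trichostatin A, against 7.38 in DMSO.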

How the data were processed

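Total RNA was hybridized to Affymetrix mouse genome arrays. The authors deposited a normalized log2 signal for every probe set on every array. The methods name GC-RMA for these data, and RMAExpress and MAS 5.0 beside it, and which made the table was not settled from the values. Other normalizations scale the folds of dim probe sets differently. The table has 45101 probe sets, and the 64 that are controls of the array were not used. Symbols are those of the platform annotation, and the gene identifiers of all 26 member probe sets matched RefSeq with the same symbol.

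limma 3.58.1 in R 4.3.3 estimated the mean of each treatment from the 15 arrays together (10 residual degrees of freedom), with empirical Bayes moderation and Benjamini-Hochberg adjustment over the probe sets tested, and was checked on simulated data. Members and lists were chosen with earlier results of these data known. All members are named, with, per list and comparison with DMSO, up to 3 called genes of largest difference that do not overlap DMSO.

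Whether replicate numbers pair the arrays was checked by the correlation, between arrays of equal number, of what is left after subtracting treatment means. Every pair exceeded 0.1 (0.22 to 0.769) in all comparisons but Trichostatin A against DMSO (0.239, 0.474 and 0.0284) and against LY294002 (0.266, 0.251 and -0.111). By this measure the number pairs the arrays of the other 8 comparisons. The main fit leaves that pairing out, and a fit with the number as a block was an alternative. The others were the 2 groups alone, without the Trichostatin A arrays, no filter, a signal minimum of 100, a filter on the mean of all arrays, quantile normalization, median centring, a robust prior with a trend, averaging a gene's probe sets, and leaving out each array or replicate number. Promoters were searched with Python.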

Additional observations from a re-analysis of the deposited data

How the results depend on the processing

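Over 123 gene results and 2278 fits under the alternatives, 138 fits lost a call and 39 gained one. The sign changed in 61 fits of 18 results, none of them called with or without the alternative. In Trichostatin A against DMSO, the calls of Igf1, Igf1r, Igfbp2, Igfbp3, Igfbp4 and Igfbp6 held in all 18 alternatives. With the replicate block, genes called lower in LY294002 numbered 2, genes called higher in U0126 numbered 2, and LY294002 differed from U0126 in 4. The block called 6 list genes in U0126 and 5 in SB202190 against DMSO. It called 6370, 1507 and 1905 probe sets in LY294002, U0126 and SB202190 against DMSO, 4828 and 3312 in LY294002 against U0126 and SB202190, and 3163 in U0126 against SB202190, where 2978, 667, 669, 1945, 1579 and 1800 were called without it. It also called Igf2r lower in Trichostatin A than in LY294002 (-0.45, adjusted p = 0.00385). There the correlation of replicate 3 was -0.111, while those of replicates 1 and 2 were 0.266 and 0.251. With the 2 groups alone, genes called higher in LY294002 numbered 2, LY294002 differed from U0126 in 1 gene, list genes called against DMSO numbered 8, 1 and 1 and probe sets 696, 318 and 368 in LY294002, U0126 and SB202190, and 1039 probe sets differed between LY294002 and U0126. After quantile normalization, 2 genes were called higher in LY294002 and 0 lower in SB202190, with 4 list genes in SB202190 and 1017 and 1280 probe sets in U0126 and SB202190. It also lowered the share of higher calls to 62.1% (79.3% as deposited) in LY294002 against DMSO, 57.3% (70.7%) against U0126 and 52.9% (66.6%) against SB202190. Without the Trichostatin A arrays, 0 genes were called lower in SB202190. A minimum of 100 called 5 list genes in U0126. The mean of all probe sets called 2 genes lower in LY294002, 4 genes between LY294002 and U0126 and 1 list gene in SB202190.

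Leaving out arrays, genes called numbered 0 to 4 (higher) and 0 to 2 (lower) in LY294002, 0 to 1 (lower) in U0126, 0 to 1 (lower) in SB202190 and 4 to 5 (lower) in Trichostatin A. They numbered 0 to 2 between LY294002 and U0126, 2 to 4 between LY294002 and SB202190, 2 to 3 between U0126 and SB202190, and 5 to 7, 6 to 7 and 6 to 7 between Trichostatin A and LY294002, U0126 and SB202190. List genes numbered 2 to 21, 0 to 4, 1 to 3 and 24 to 36 in LY294002, U0126, SB202190 and Trichostatin A. Probe sets numbered 178 to 5210, 103 to 642, 50 to 842 and 11173 to 15574 in the same order, 181 to 1877, 227 to 1266 and 523 to 1493 between kinase inhibitors (LY294002 and U0126, LY294002 and SB202190, U0126 and SB202190), and 10417 to 13027, 11062 to 14360 and 10018 to 12610 between Trichostatin A and LY294002, U0126 and SB202190. In LY294002 against DMSO the lowest counts came without replicate 2 of every treatment. With 3 arrays per treatment, smaller differences may be missed.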

Other observations

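The arrays of 1 replicate number often ranked alike in every treatment. Replicate 3 was the lowest of its treatment in all 5 treatments for Igf1, Igf2r and Igfbp3, and replicate 1 was the lowest in all 5 for Igfbp2, 4 of the 9 genes. Over all 18193 named genes, 9.2% had the same replicate number lowest in all 5 treatments (2.69% replicate 1, 4.02% replicate 2 and 2.49% replicate 3). For Igfbp7, replicate 3 was the highest in all 5. The replicate number was not part of the fit behind the values above.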
